A study of Mus musculus and Acomys cahirinus with 16 samples.

Results

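The IL-20 family of cytokines, their receptor chains and the signalling genes downstream of them were followed as 10 genes chosen by symbol. These are the ligands Il24, Il19 and Il20, the receptor chains Il20ra, Il20rb, Il22ra1 and Il10rb, the transcription factor Stat3, its feedback inhibitor Socs3, and the cytokine Il6. All 10 were found in both count tables, among 56980 mouse genes and 19818 spiny mouse genes. They were chosen with their response to treatment already known, so their levels, fold changes and calls below are a description, printed without p-values and used as support for nothing. Skin RNA was sequenced from the laboratory mouse (Mus musculus) and the African spiny mouse (Acomys cahirinus), a rodent known for regenerating skin. Each species contributed 4 samples without treatment and 4 after DMBA/TPA, 16 in all. DMBA (dimethylbenzanthracene) initiates tumours by damaging DNA, and repeated TPA, a protein kinase C activator, promotes their growth. The labels give no strain, age, dose or time, and do not say whether treated skin held tumours or which replicates came from separate animals, so p-values measure only the spread between these samples.

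IL-19, IL-20 and IL-24 are secreted relatives of IL-10 that act mainly on epithelial cells. IL-20 and IL-24 bind a receptor made of IL20RB with either IL20RA or IL22RA1, IL-19 binds only the pair of IL20RA and IL20RB, and IL-22 binds IL22RA1 with IL10RB. These receptors, like the gp130 receptor used by IL-6, signal through Janus kinases to STAT3, and STAT3 induces SOCS3, which binds the receptor complex and damps it. In keratinocytes the pathway is known for driving proliferation and the stress keratins and antimicrobial proteins of wounded or inflamed epidermis.

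Letters that match binding sites of factors of this pathway were looked for in the 250 bases before the start of each mouse gene, since several members were higher together after treatment. RefSeq sequences of the GRCm38.p6 build held 8 of the 10 members, all but Il24 and Il10rb. The motifs, read on both strands, were TTCNNNGAA (STAT factors), TGANTCA (AP-1), and GGGAN followed at once by TTTCC (NF-kB), and no 2 matches overlapped. Il19 and Socs3 held the STAT letters, Il20ra, Il22ra1 and Il6 held the AP-1 letters, and Il6 also held the NF-kB letters. Among 32851 promoters of the same length, 7.02% held the STAT letters, 6.75% the AP-1 letters and 0.356% the NF-kB letters. No match was found in the windows of Il20, Il20rb and Stat3, which says only that these letters are not there. The matched letters are in capitals below, 5′ to 3′ on the strand of the gene. Il19 (chr1:130940322-130940350, minus strand) and Socs3 (chr11:117969502-117969530, minus strand) are shown for the STAT letters, Il20ra (chr10:19712413-19712439, plus strand) for the AP-1 letters, and the whole window of Il6 (chr5:30012864-30013113, plus strand) for the AP-1 and NF-kB letters.
Il19: gagtttatttTTCCCAGAAgcaatgtgtc
Socs3: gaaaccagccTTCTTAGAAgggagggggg
Il20ra: tctgctgtacTGAGTCAgagctcatcg
Il6: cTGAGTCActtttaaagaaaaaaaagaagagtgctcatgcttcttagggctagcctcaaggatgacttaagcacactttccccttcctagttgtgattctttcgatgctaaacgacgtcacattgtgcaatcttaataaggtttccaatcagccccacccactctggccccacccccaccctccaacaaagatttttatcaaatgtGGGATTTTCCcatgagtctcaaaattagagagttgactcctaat

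The 8 mouse libraries held 19608787 to 30198281 counts each, and the 8 spiny mouse libraries 21143918 to 30561256. Levels are given in CPM, counts relative to the TMM-scaled size of each library, and 3 counts were worth 0.102 to 0.158 CPM. The tables of the 2 species were annotated and scaled separately, so levels set side by side across species are a description. Markers of keratinocytes, which define skin, were detected for 5 of 5 listed genes, and their summed level was 6182 to 12535 CPM in untreated and 19266 to 27750 CPM in treated mouse skin, and 12715 to 15952 and 22588 to 29094 CPM in spiny mouse. Tissue makeup moved with treatment: the 6 anagen hair follicle markers summed to 5.69 to 1614 CPM in untreated and 16920 to 18012 CPM in treated mouse skin, and skeletal muscle markers summed to 7410 to 9433 and 1718 to 2238 CPM. In spiny mouse, where 5 of the 6 hair follicle markers had an entry, their sum was 777 to 8005 CPM untreated and 145 to 2262 CPM treated. The spiny mouse muscle sum was 8920 to 11553 and 3015 to 6186 CPM. Untreated spiny mouse replicates 1 and 2 held hair follicle sums of 6817 and 8005 CPM, against 777 and 2388 CPM in replicates 3 and 4. Among untreated mouse samples, replicate 2 held the hair follicle sum of 1614 CPM, against 29.2 CPM or less in the others, and replicate 1 held a liver marker sum of 580 CPM, against 5.79 CPM or less in the others. The part of these tissue markers in the results below was not tested. In whole skin, fewer cells of a type and less RNA per cell cannot be told apart.

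Il24, a ligand of both IL20RB receptors, had the largest fold change of the members in spiny mouse. Its level in untreated spiny mouse skin was 0.476, 0.198, 0.340 and 0.137 CPM in replicates 1 to 4, and in treated skin 36.4, 54.4, 36.4 and 60.3 CPM. Every treated sample lay far above every untreated one, and the fitted change was 154-fold (log2 fold change 7.27, SE 0.32, n = 4 per group). In mouse the untreated levels were 0.0407, 0, 0.110 and 0.137 CPM and the treated levels 2.42, 1.76, 1.64 and 3.19 CPM, a fitted change of 29.1-fold (log2 4.86, SE 0.55). The mouse groups did not overlap either, but the untreated level rests on 7 counts over 4 libraries against 217 in treated skin, a ratio of 31.1 with an exact 95% counting interval of 14.9 to 78.3. Such intervals cover counting error only. Treated skin therefore held a mean of 2.25 ± 0.72 CPM (SD, n = 4) in mouse and 46.9 ± 12.3 CPM in spiny mouse.

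Il19 encodes the ligand that uses only the receptor with IL20RA. In mouse it was at 0, 0, 0.147 and 0.0911 CPM in untreated and at 5.72, 1.49, 1.78 and 1.08 CPM in treated samples. Treated replicate 1 stood above the other 3 treated samples, and all treated samples lay above all untreated ones. The fitted change was 37.4-fold (log2 5.23, SE 0.87), resting on 6 counts in untreated and 221 in treated skin. It was 4.48 on the log2 scale without treated replicate 1 and 6.24 without untreated replicate 3. In spiny mouse the levels were 0.510, 0.0397, 0.170 and 0.183 CPM untreated and 4.23, 9.40, 5.56 and 9.41 CPM treated. These groups did not overlap, and the fitted change was 30.1-fold (log2 4.91, SE 0.51), with 25 counts against 714. Without untreated replicate 1 the log2 value was 5.71. The fitted fold changes of Il19 in mouse and spiny mouse thus lay within the SE of either.

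Il20 stayed close to the smallest measurable level. Mouse skin gave 1 count over the 4 untreated libraries, and 3, 0, 2 and 5 counts in the treated ones, so the gene did not pass the low-count filter and no fold is given. In spiny mouse the levels were 0.374, 0.159, 0.511 and 0.366 CPM untreated and 1.0, 0.858, 0.366 and 0.503 CPM treated. The spiny mouse groups overlapped, with a fitted log2 fold change of 0.92 (SE 0.42) that was not called. A count ratio of 67 to 38 after scaling gave 1.88 with a counting interval of 1.25 to 2.88, which leaves out the spread between samples.

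Il6, the founding ligand of the gp130 cytokines, was called higher in spiny mouse and was scarce in mouse. In spiny mouse it stood at 1.16, 1.43, 1.29 and 2.06 CPM in untreated skin and at 27.6, 35.7, 20.4 and 39.7 CPM in treated skin. No samples overlapped, and the fitted change was 21.0-fold (log2 4.39, SE 0.26). Mouse skin had 0.244, 0.175, 0.293 and 0.364 CPM untreated and 0.840, 0.615, 0.255 and 0.520 CPM treated. The mouse groups overlapped, and the gene did not pass the low-count filter. The scaled ratio of 51 to 26 counts was 1.97 (interval 1.21 to 3.29, counting error only). A test of the difference between species was not made for Il6 or Il20, because neither passed the filter in mouse.

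**Figure D1:**
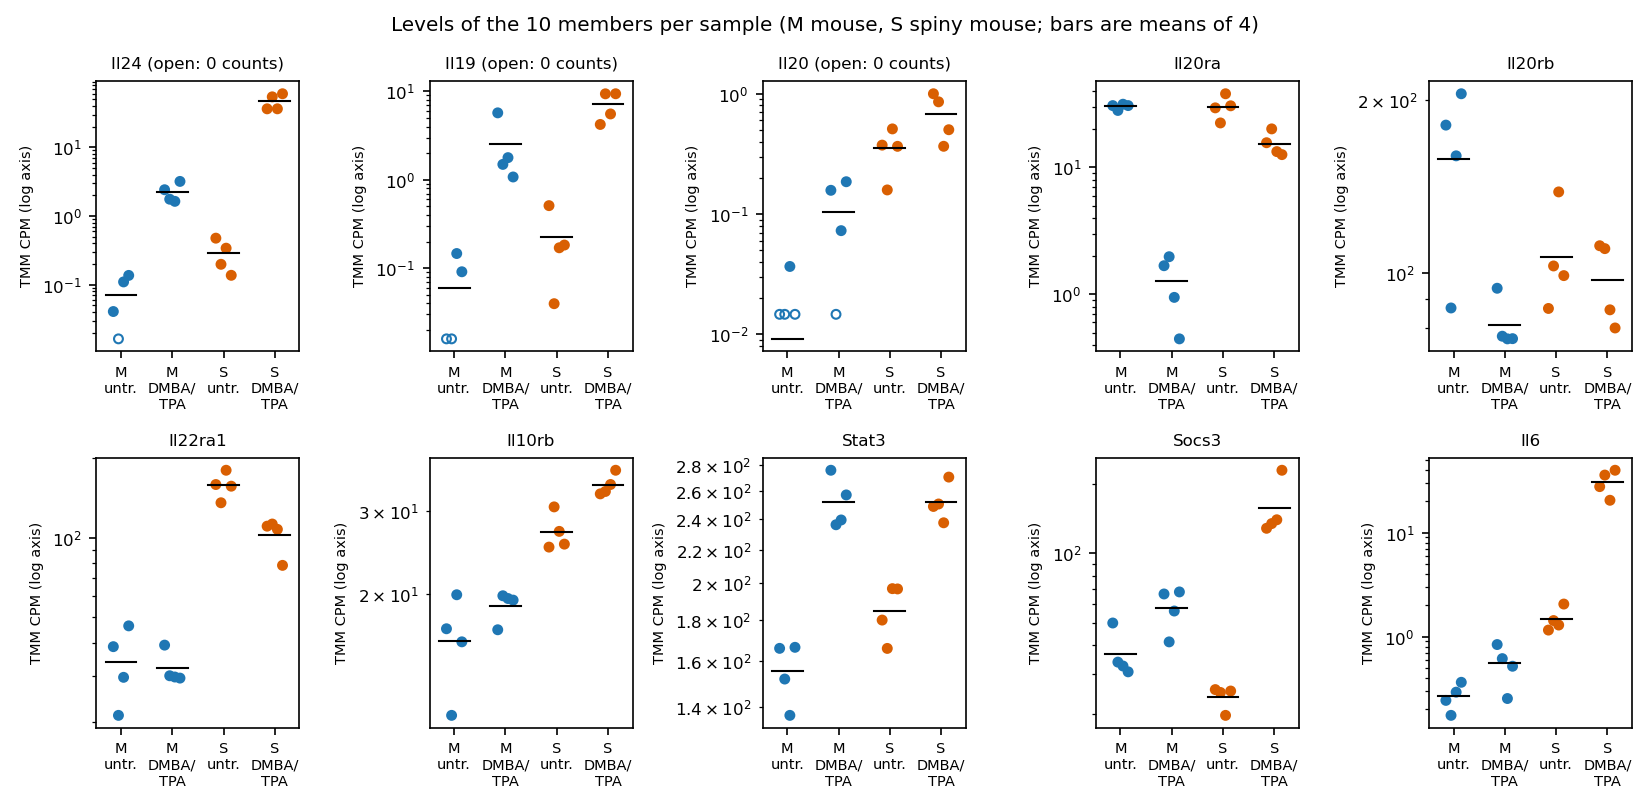
Level of each of the 10 genes in every sample, in CPM on log axes whose ranges differ between panels, with bars at the means of 4 samples and open circles for samples at 0 counts, drawn at an arbitrary low height. Il24, Il19, Il6 and Socs3 had their highest group mean in treated spiny mouse skin, and Il20ra lay between 0.446 and 1.98 CPM in treated mouse skin.

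Among the receptor chains, Il20ra showed the widest gap between the species. This chain completes the receptor that IL-19 needs. Untreated levels were 30.7, 28.1, 31.5 and 30.7 CPM in mouse and 29.5, 22.4, 38.1 and 30.6 CPM in spiny mouse, ranges that overlapped. Treated mouse samples held 1.68, 1.98, 0.946 and 0.446 CPM, which is 24.4-fold lower (log2 fold change -4.61, SE 0.36). Treated spiny mouse samples held 15.6, 20.1, 13.3 and 12.6 CPM, which is 1.95-fold lower (log2 -0.96, SE 0.19). In each species the treated samples all lay below the untreated ones. The log2 fold change in spiny mouse exceeded that in mouse by 3.65 (SE 0.38).

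Il20rb, the chain shared by all receptors for IL-19, IL-20 and IL-24, was the most abundant of the 4 member chains per length. Mouse skin held 181, 86.8, 160 and 205 CPM untreated and 93.9, 77.5, 76.7 and 76.7 CPM treated. Untreated replicate 2 lay within the treated range, so the groups overlapped, and the fitted log2 fold change was -0.96 (SE 0.23). Without that library it was -1.07. Spiny mouse skin held 86.6, 103, 138 and 98.8 CPM untreated and 111, 110, 86.1 and 80.1 CPM treated, with overlapping groups and a log2 fold change of -0.14 (SE 0.16) that was not called. The difference between species was 0.82 (SE 0.30), a call that was kept in only 10 of 24 alternative fits, and lost, at 0.74, without untreated mouse replicate 1.

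Il22ra1, which pairs with IL20RB for IL-20 and IL-24 and with IL10RB for IL-22, was called lower in spiny mouse and not called in mouse. Its mouse levels were 38.6, 21.2, 29.5 and 46.3 CPM untreated and 39.1, 29.9, 29.6 and 29.3 CPM treated, with overlapping groups and a log2 fold change of -0.08 (SE 0.22). In spiny mouse the levels were 159, 136, 180 and 157 CPM untreated and 111, 113, 107.5 and 78.5 CPM treated. The spiny mouse groups did not overlap, and the fitted change was 1.54-fold lower (log2 -0.63, SE 0.13). The difference of the 2 log2 fold changes, -0.54 (SE 0.27), was not called.

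Il10rb, the broadly used chain that IL-10, IL-22 and the lambda interferons share, was called higher in spiny mouse and not called in mouse. Mouse skin held 16.9, 11.1, 20.0 and 15.9 CPM untreated and 16.9, 19.9, 19.6 and 19.5 CPM treated, and the groups overlapped (log2 fold change 0.24, SE 0.17, not called). In the mouse annotation 569 of its 3808 exon bases are shared with the gene model Gm21970, and fragments shared with that model were not counted. Spiny mouse skin held 25.1, 30.5, 27.1 and 25.5 CPM untreated and 32.5, 32.9, 34.0 and 36.5 CPM treated. The spiny mouse samples separated, with a 1.25-fold higher fitted level (log2 0.33, SE 0.08). The difference between species, 0.08 (SE 0.19), was not called.

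The balance between the 2 chains that pair with IL20RB shifted in mouse. The ratio of Il22ra1 to Il20ra, each in CPM per kb of exon, was 1.19, 0.712, 0.887 and 1.42 in untreated mouse samples and 22, 14.3, 29.6 and 62.2 in treated ones. In spiny mouse it was 2.73 to 3.48 untreated and 3.22 to 4.65 treated, and the ranges overlapped. The ratio of Il20rb to Il22ra1 went opposite ways, from 2.50 to 3.31 down to 1.47 to 1.60 in mouse, and from 1.09 to 1.54 up to 1.61 to 2.05 in spiny mouse. Neither pair of ranges overlapped. The ratio of Il20rb to Il20ra was higher after treatment in both species, without overlap. Its range was 1.78 to 3.85 untreated and 22.6 to 99.4 treated in mouse. In spiny mouse it was 3.40 to 5.30 untreated and 6.33 to 8.23 treated.

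**Figure D2:**
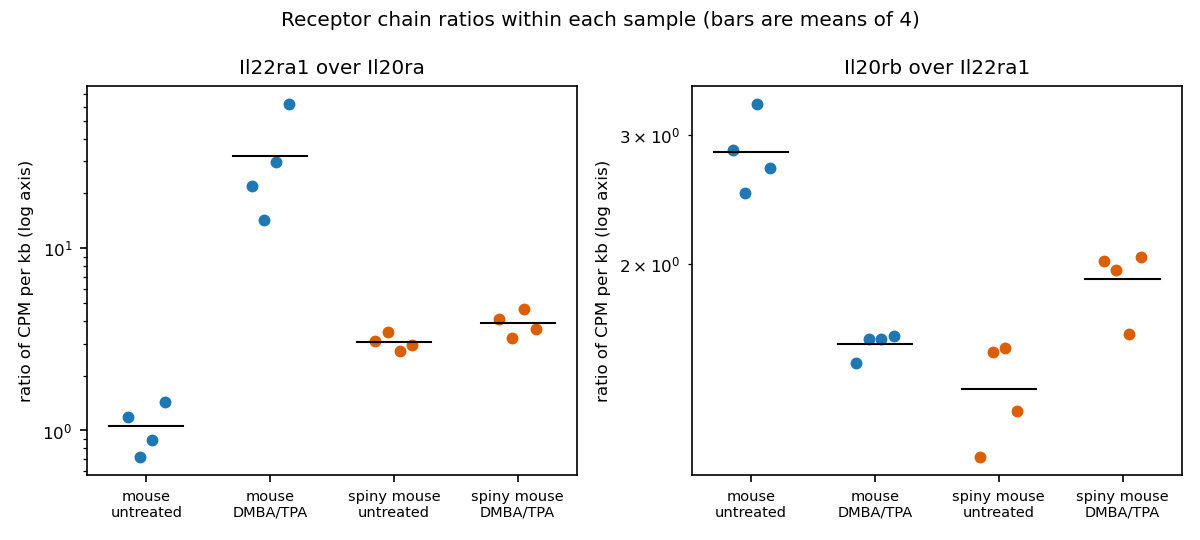
Ratios of receptor chain transcripts within each sample, each in CPM per kb of exon on a log axis, for the 4 groups of 4 samples, with bars at group means. Il22ra1 over Il20ra lay between 14.3 and 62.2 in treated mouse skin and at no more than 4.65 in the other groups.

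Stat3, the transcription factor at the end of these receptors, was higher after treatment in both species. Mouse samples held 166, 152, 137 and 166 CPM untreated and 276, 236, 239 and 257 CPM treated, a 1.63-fold change (log2 0.70, SE 0.12). Spiny mouse samples held 180, 166, 197 and 197 CPM untreated and 249, 251, 238 and 271 CPM treated, a 1.36-fold change (log2 0.45, SE 0.08). The groups did not overlap in either species. The difference of the log2 fold changes, -0.25 (SE 0.13), was not called in the fit to all samples, nor in 19 of 24 alternative fits. It was called with DESeq2 or its size factors, without a low-count filter, and without treated mouse replicate 2. Without untreated mouse replicate 2 it was also called, at -0.33. Transcript levels do not measure the phosphorylated, active STAT3 protein.

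Socs3, the STAT3-induced brake on gp130 receptors, was called higher in both species, with a called difference between them. In spiny mouse it was at 25.6, 24.8, 19.7 and 25.2 CPM untreated and at 128, 135, 140 and 229 CPM treated. Treated replicate 4 stood above the rest, no samples overlapped, and the fitted change was 6.63-fold (log2 2.73, SE 0.20). Mouse skin held 49.8, 33.6, 32.3 and 30.5 CPM untreated and 66.5, 41.2, 56.1 and 67.9 CPM treated. Here untreated replicate 1 exceeded treated replicate 2, and the fitted change was 1.58-fold (log2 0.66, SE 0.20). The mouse call was lost when samples were scaled by library size alone or by upper quartiles. The log2 fold change in spiny mouse exceeded that in mouse by 2.07 (SE 0.29).

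Counted together, 8 members passed the low-count filter in mouse, of which 4 were called higher (Il24, Il19, Stat3, Socs3) and 2 lower (Il20ra, Il20rb) by edgeR at an adjusted p under 0.05. Over the 19740 mouse genes in that fit, 61.2% passed, 25.9% upward and 35.3% downward. In spiny mouse all 10 passed the filter, with 6 called higher (Il24, Il19, Il6, Stat3, Socs3, Il10rb) and 2 lower (Il20ra, Il22ra1), where 55.1% of 14833 genes passed, 28.2% upward and 26.9% downward. Groups of 4 samples did not overlap for 4 of the 8 mouse members and 8 of the 10 spiny mouse members, against 58.6% and 50.9% of all genes tested. Treated samples were all higher for 3 of those mouse members and 6 of those spiny mouse members, against 26.6% and 26.7% of all genes. The median log2 fold change was 0.45 over the 8 mouse members and -0.15 over all mouse genes, and 0.69 and -0.01 in spiny mouse. Of the 8 members tested for a difference between species, 3 were called (Il20ra, Il20rb and Socs3), each positive, meaning higher in spiny mouse, where 46.1% of 13656 shared genes were called. With DESeq2 6 were called, 4 positive and 2 negative. For Il24 that difference was 2.40 (SE 0.96), which was not called. It was called in 9 of 24 alternative fits, among them the fit without untreated mouse replicate 2, at 2.68. Leaving out untreated mouse replicate 1 or 2 kept each of the 6 mouse calls, with log2 fold changes of 4.69 and 4.58 for Il24, 4.84 and 4.93 for Il19, -4.59 and -4.57 for Il20ra, -0.88 and -1.07 for Il20rb, 0.75 and 0.78 for Stat3, and 0.86 and 0.72 for Socs3.

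**Figure D3:**
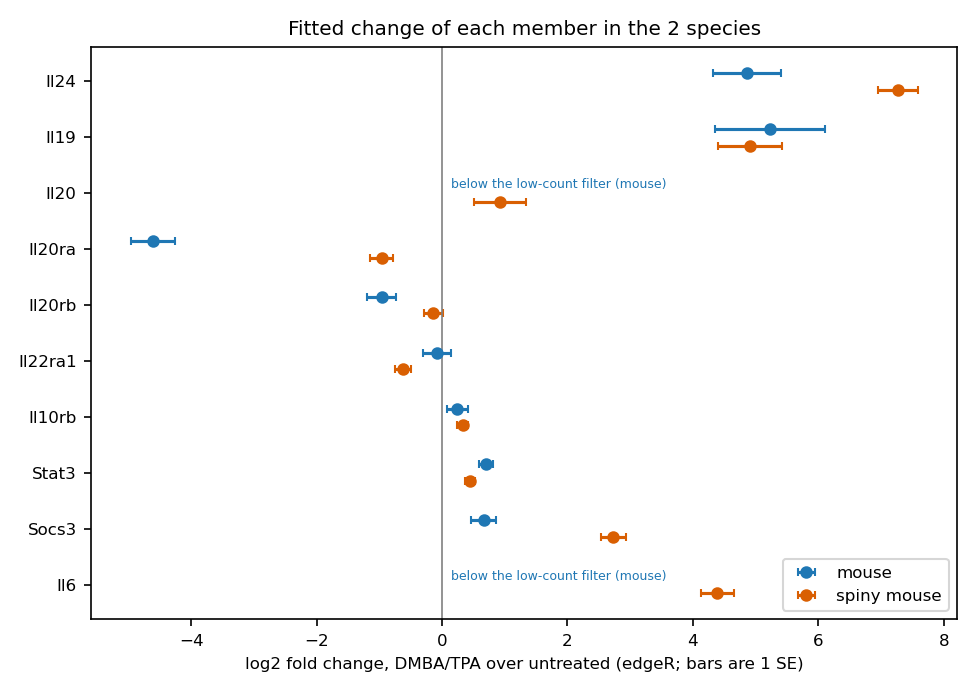
Fitted log2 fold change of DMBA/TPA over untreated skin for each of the 10 genes in mouse and spiny mouse, with bars of 1 SE. Il20ra lies at -4.61 in mouse and -0.96 in spiny mouse, and Il24 at 4.86 and 7.27; Il20 and Il6 were below the low-count filter in mouse.

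Per kb of exon, the order of the 10 genes within a group also shifted. In untreated mouse skin Il20rb led with 37.6 ± 12.1 CPM per kb (SD, n = 4). Stat3 (16.3 ± 1.5), Il22ra1 (13.2 ± 4.2), Socs3 (12.6 ± 3.1) and Il20ra (12.5 ± 0.60) followed in CPM per kb, with overlapping samples between neighbours in that order. Il10rb held 4.20 ± 0.96 CPM per kb, and the 4 cytokines were each at 0.111 or less. In treated mouse skin Stat3 led with 26.5 ± 1.9 CPM per kb, Il24 held 1.63 ± 0.52 and Il20ra 0.520 ± 0.287. In untreated spiny mouse skin Il20rb (41.3 ± 8.6) and Stat3 (39.5 ± 3.2) led in CPM per kb and did not differ beyond their spread. In treated spiny mouse skin Socs3 (58.0 ± 17.6), Stat3 (53.9 ± 3.0), Il24 (42.0 ± 11.1), Il20rb (37.6 ± 6.3) and Il6 (26.8 ± 7.4) were the 5 highest in CPM per kb, with overlapping samples between neighbours in that order. Il24 thus stood beside its receptor chain Il20rb there, and well below it in treated mouse skin, where Il20rb held 19.3 ± 2.0 CPM per kb.

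Beyond the members, 89 other genes of the pathway were listed in 8 groups by role. In mouse 80 were tested, of which 38 rose and 18 fell, or 70.0% called against 61.2% of all genes. In spiny mouse 74 were tested, of which 48 rose and 5 fell, or 71.6% against 55.1%. Median log2 fold changes were 0.40 in mouse and 0.61 in spiny mouse, against -0.15 and -0.01 over all genes. By direction, 25.9% of all genes rose and 35.3% fell in mouse, and 28.2% rose and 26.9% fell in spiny mouse. Of shared genes, 21.4% had a positive and 24.7% a negative called species difference. The counts for each list and marker set below are to be read beside these shares. The split in mouse depended on scaling, with 32 rising and 24 falling when library size alone was used. Adjusted p-values below come from the edgeR quasi-likelihood test over all genes, and since these lists too were chosen with earlier results known, they are not independent evidence of direction.

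Other ligands of the IL-10 group were scarce. Il10 itself rose in spiny mouse from 0.0368 ± 0.0325 to 0.773 ± 0.296 CPM (log2 fold change 4.19, SE 0.54, adjusted p = 0.000232) and was not tested in mouse, with 40 counts untreated and 21 treated. Il22 had 0 counts in the 4 untreated mouse libraries and 19 in the treated ones, and 1 and 0 counts in spiny mouse, below the filter in both. Il22ra2, the soluble decoy that captures IL-22, fell in mouse from 14.6 ± 6.5 to 1.36 ± 0.17 CPM (log2 -3.42, SE 0.35, adjusted p = 5.95e-05) and was below the filter in spiny mouse. Il10ra, the ligand-binding chain for IL-10 on leukocytes, fell in mouse from 15.5 ± 3.2 to 10.3 ± 1.2 CPM (adjusted p = 0.0119, a call lost without treated replicate 2) and rose in spiny mouse from 19.9 ± 1.7 to 49.3 ± 1.9 CPM (adjusted p = 8.52e-06). The difference was 1.91 on the log2 scale (SE 0.18, adjusted p = 1.40e-06). T cell markers moved the same way, with 3 of 5 lower in mouse (summed 16 to 23.3 CPM untreated, 7.47 to 10.4 treated) and 3 of 5 higher in spiny mouse (28.1 to 46.1, then 49.3 to 97.3 CPM). Macrophage markers were lower for 2 of 5 in mouse (313 to 746, then 341 to 462 CPM, which overlap) and higher for 3 of 5 in spiny mouse (388 to 431, then 676 to 1033 CPM). Over all genes 35.3% were lower in mouse and 28.2% higher in spiny mouse, and the mouse macrophage count lies near that share. No marker of either list was at 0 throughout a group, and their part in these results was not tested.

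Among other gp130 ligands, Osm, Lif and Clcf1 rose in spiny mouse. Of 6 tested in each species, 3 rose and 1 fell in mouse, and 3 rose and 2 fell in spiny mouse. Osm encodes oncostatin M, a leukocyte cytokine that acts on skin and liver. It was at 0.340 to 0.777 CPM in untreated and 10.8 to 22.5 CPM in treated spiny mouse skin (log2 fold change 5.03, SE 0.32, adjusted p = 9.90e-06). In mouse it was at 0.395 to 0.936 and 0.40 to 1.34 CPM, with overlapping groups (adjusted p = 0.544), and the difference of 4.70 (SE 0.55) had an adjusted p of 1.01e-05. Lif, the ligand of Lifr, rose in both species, with 2.90 ± 0.34 then 4.97 ± 0.87 CPM in mouse, and 3.6 ± 0.41 then 28.6 ± 11.1 CPM in spiny mouse (difference 2.21, SE 0.33, adjusted p = 8.60e-05). Clcf1, a ligand of Cntfr, rose by 2.51 on the log2 scale in spiny mouse and by 0.78 in mouse (difference 1.72, adjusted p = 0.000406). The mouse groups of Clcf1 overlapped, and its mouse call was lost in 5 of 16 alternative fits, among them those without treated replicate 4 or untreated replicate 1 or 3. Of 5 neutrophil markers, 2 could be tested in mouse and 3 in spiny mouse, and all of those rose. The list summed to 5.96 to 10.4 CPM untreated and 18.7 to 29.0 treated in mouse, and to 5.51 to 10.1 and 53.6 to 71.3 CPM in spiny mouse. Ly6g, the defining marker, was at 0 in treated mouse skin, and the part of these cells was not tested.

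Several receptors of this group responded differently in the 2 species. Of the IL-6 family receptor genes 2 rose and 4 fell of 8 in mouse, and 3 rose and 2 fell of 7 in spiny mouse. Over all genes 25.9% rose and 35.3% fell in mouse, and 28.2% and 26.9% in spiny mouse. The species difference was positive for 5 of 7 and negative for 1, against 21.4% and 24.7% of shared genes. The mouse median log2 fold change was -0.15, as over all genes. Lifr was called lower in both species, with log2 fold changes of -1.14 in mouse and -0.38 in spiny mouse. Il6ra, the ligand-binding chain for IL-6, was at 134, 104, 118 and 150 CPM in untreated and 41.8, 34.2, 33.5 and 33.2 CPM in treated mouse samples. Spiny mouse samples were at 77.9, 71.9, 90.1 and 92.7 CPM untreated and 101, 99.1, 109 and 114 CPM treated. The groups separated in opposite directions, with log2 fold changes of -1.83 (SE 0.14, adjusted p = 1.49e-05) and 0.35 (SE 0.09, adjusted p = 0.00972), and a difference of 2.18 (SE 0.17, adjusted p = 2.13e-07). Il6st, which encodes gp130, fell in mouse from 379 ± 26 to 288 ± 7.1 CPM and rose in spiny mouse from 472 ± 31 to 676 ± 40 CPM (difference 0.91, adjusted p = 4.43e-05). The mouse fall of Il6st was lost in 4 of 16 alternative fits, among them those without treated replicate 2 or 3. Il31ra, the receptor of the itch cytokine IL-31, held 22.2 to 49.6 CPM in untreated and 1.45 to 2.47 CPM in treated mouse skin, and 19.5 to 20.0 and 13 to 22.2 CPM in spiny mouse. Its log2 fold change was -4.19 (SE 0.30, adjusted p = 1.19e-05) in mouse, and the species differed by 3.98 (SE 0.33, adjusted p = 4.41e-07). Osmr, the oncostatin M receptor, rose in spiny mouse from 59.6 ± 8.3 to 124 ± 23 CPM (adjusted p = 0.000370) and was at 62.7 ± 6.2 and 71.9 ± 6.5 CPM in mouse (adjusted p = 0.135). Cntfr went the other way, rising in mouse by 3.05 (SE 0.46) and falling in spiny mouse by 0.98 (SE 0.19) on the log2 scale. Without untreated mouse replicate 2, at 12.4 CPM against 2.49 to 3.87 CPM in the other untreated samples, the rise of Cntfr was 3.92. Il11ra1 rose in mouse by 0.48, with overlapping groups and a call lost in 4 of 16 alternative fits, among them those without treated replicate 3 or 4, while in spiny mouse 1691 of its 1970 exon bases are shared with other gene models, and it was below the filter there.

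Janus kinases and the other STAT genes were called in opposite directions in the species. In mouse 0 of 10 rose and 5 fell, among them Jak3, Stat5b, Stat2 and Stat5a, and in spiny mouse 9 of 10 rose and 0 fell by the edgeR test. At an unadjusted p under 0.05 the counts were 0 and 5 in mouse and 9 and 0 in spiny mouse, with DESeq2 1 and 5 in mouse and 9 and 0 in spiny mouse, and with voom 0 and 5, and 9 and 0. The species difference was positive for 8 of 10, where 21.4% of all shared genes were called in that direction. The median log2 fold change was -0.25 in mouse, close to the -0.15 of all genes, and 0.80 in spiny mouse. Jak3, the kinase of leukocyte cytokine receptors, was at 17.4 to 24.3 CPM in untreated and 9.38 to 11.1 CPM in treated mouse skin, and at 10.0 to 12.1 and 31.8 to 39.2 CPM in spiny mouse (difference 2.61, SE 0.17, adjusted p = 4.28e-08). Jak2, a more broadly expressed kinase, rose in spiny mouse from 134 ± 12 to 343 ± 53 CPM and was at 59.6 ± 1.8 and 56.4 ± 4.4 CPM in mouse (difference 1.44, SE 0.15, adjusted p = 3.78e-06). Jak1, the kinase bound to the IL-20 receptors and gp130, rose in spiny mouse by 0.52 on the log2 scale (adjusted p = 0.00126).

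Inhibitors besides Socs3 went both ways. Of 15 genes for SOCS proteins, PIAS proteins and phosphatases, 6 rose and 4 fell in mouse. In spiny mouse 7 rose and 1 fell, and 5 differences were called each way. The share called was 66.7% in mouse and 53.3% in spiny mouse, near the 61.2% and 55.1% of all genes. For the difference it was 66.7%, against 46.1% of shared genes. With library size scaling 3 rose and 7 fell in mouse, and 7 differences were positive and 1 negative. Socs1, which blocks Janus kinases directly, rose in spiny mouse from 9.28 ± 1.32 to 29.9 ± 8.3 CPM (log2 1.69, SE 0.19) and in mouse from 6.61 ± 1.90 to 9.93 ± 1.35 CPM (log2 0.59, SE 0.22, a call kept in 10 of 16 alternative fits and lost without treated replicate 1, 3 or 4 or untreated replicate 1). Socs2 rose in spiny mouse by 1.08 and fell in mouse by 0.72 on the log2 scale (difference 1.80, SE 0.30, adjusted p = 0.000206). Ptpn11, which encodes the phosphatase SHP2 that docks on gp130, rose in mouse from 135 ± 9.2 to 265 ± 17 CPM and was at 263 ± 12 and 259 ± 12 CPM in spiny mouse (difference -1.0, SE 0.11, adjusted p = 6.67e-06). Socs5 and Ptpn1 rose in both species, by 0.96 and 0.97 in mouse against 0.62 and 0.60 in spiny mouse on the log2 scale. Their differences, -0.34 and -0.37, were called, but both calls were lost when samples were scaled by library size alone or by upper quartiles. Pias3, an inhibitor of STAT3, fell in mouse by 0.79 (adjusted p = 0.000149) and was at -0.10 in spiny mouse (adjusted p = 0.342).

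Known targets of STAT3 rose in both species to a similar count, 12 of 17 in mouse and 12 of 16 in spiny mouse. None fell in either species by edgeR, also at an unadjusted p under 0.05 and by DESeq2 or voom, which called 13 higher in mouse and 12 in spiny mouse. Only 4 of 16 were called different between species, 2 each way, against 46.1% of all shared genes, and the split was 4 positive and 0 negative with library size scaling and 4 and 2 with voom. Bcl3, a partner of NF-kB, rose from 8.49 ± 1.49 to 30.0 ± 3.9 CPM in mouse and from 10.1 ± 1.3 to 31.2 ± 4.0 CPM in spiny mouse (log2 1.82 and 1.63). Hif1a, the hypoxia factor, rose by 1.31 in mouse and 1.15 in spiny mouse, and Il4ra by 1.59 and 1.17. Myc rose by 0.86 and 0.45, and Ccnd1, a cyclin of the G1 phase, by 0.84 and 1.16. Timp1, an inhibitor of matrix proteases, rose in spiny mouse from 15.4 ± 1.3 to 173 ± 38 CPM (log2 3.49, SE 0.16) and in mouse from 3.6 ± 2.46 to 11.2 ± 4.7 CPM (log2 1.63, SE 0.53), and differed by 1.86 (SE 0.55, adjusted p = 0.0120). The mouse call for Timp1 was lost without treated replicate 4 (log2 1.36) and without untreated replicate 4 (log2 1.49). Many of these genes have other known inducers.

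Epidermal genes that IL-20 family cytokines induce in cultured keratinocytes rose in both species, 12 of 14 in mouse and 9 of 11 in spiny mouse. None fell by edgeR, nor at an unadjusted p under 0.05, by DESeq2 or by voom. The median log2 fold change was 4.77 in mouse and 2.46 in spiny mouse, and the species difference was negative for 5 of 11 and positive for 1. S100a9, a subunit of the alarmin calprotectin, was at 1.45 to 10.2 CPM in untreated and 377 to 812 CPM in treated mouse skin, and at 3.81 to 9.70 and 618 to 703 CPM in spiny mouse. Its log2 fold changes were 6.34 (SE 0.60) and 6.41 (SE 0.30), with a difference of 0.07 (SE 0.57, adjusted p = 0.935). Krt6a, a stress keratin, behaved likewise with 4.89 and 4.93. Krt17, another stress keratin, rose by 2.55 in mouse and 0.56 in spiny mouse (difference -1.99, SE 0.29, adjusted p = 5.61e-05), and the spiny mouse call was lost in 4 of 16 alternative fits, among them those without treated replicate 3 or untreated replicate 3 or 4. S100a7a, the mouse psoriasin-like alarmin, was at 0.326 to 5.09 CPM in untreated and 78.2 to 95.1 CPM in treated mouse skin, and at 0.613 to 7.04 and 0.143 to 2.34 CPM in spiny mouse (difference -7.45, SE 1.15, adjusted p = 0.000107). Without untreated replicate 2, which held the 5.09 CPM, its mouse log2 fold change was 7.32 in place of 5.68 and its difference -9.09. Defb4, a beta-defensin, rose in mouse from 0.0325 ± 0.0218 to 7.54 ± 1.52 CPM, and was listed at 0 counts in spiny mouse, where its exons overlap other defensin models. Mmp3, stromelysin, was the exception, rising in spiny mouse from 2.31 ± 0.52 to 35.6 ± 30.0 CPM (log2 3.93, SE 0.55) and lying at 46.4 ± 24.2 and 55.6 ± 8.1 CPM in mouse (difference 3.67, adjusted p = 0.000609). Without treated spiny mouse replicate 4 the rise of Mmp3 was 3.17. Summed keratinocyte markers were also higher in treated skin of both species, with 3 of 5 called in each, and their part in these rises was not tested.

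Genes that the same cytokines lower in culture, which belong to late epidermal differentiation, did not fall as a group. In mouse 3 of 7 rose and 1 fell, and in spiny mouse 3 of 6 rose and none fell by edgeR, with the same counts at an unadjusted p under 0.05, by DESeq2 and by voom. Flg, which encodes filaggrin of the cornified layer, rose from 186 ± 39 to 1298 ± 152 CPM in mouse and from 312 ± 128 to 1531 ± 323 CPM in spiny mouse (log2 2.80 and 2.29). Krt1, a keratin of suprabasal cells, rose by 2.19 and 0.65, and Casp14, the protease of cornification, by 2.60 and 0.68, both by less in spiny mouse (adjusted p = 0.00184 and 0.000423). The spiny mouse groups of Casp14 overlapped, and its call there was lost in 5 of 16 alternative fits, among them those without treated replicate 1 or 2 or untreated replicate 2 or 4. Loricrin fell in mouse from 293 ± 117 to 173 ± 42 CPM at an adjusted p of 0.0498, a call kept in only 5 of 16 alternative fits and lost on leaving out any mouse sample except untreated replicate 2.

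**Figure D4:**
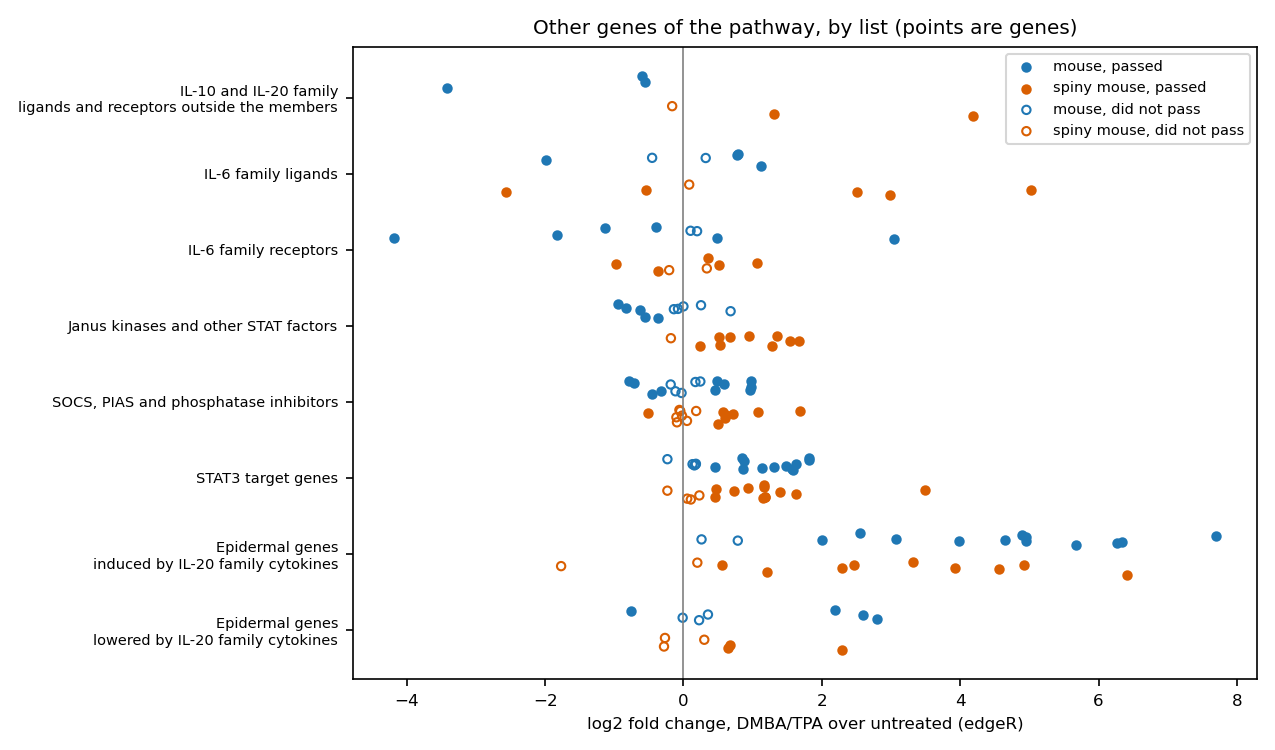
Log2 fold change of DMBA/TPA over untreated skin for the other listed pathway genes that were tested, by list and species, filled where the edgeR test passed and open where it did not. Janus kinase and STAT genes lie below 0 among filled mouse points and above 0 among filled spiny mouse points, while filled points of STAT3 targets and induced epidermal genes lie above 0 in both.

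Il24, Il19 and Il20 are neighbours in the genome, so the genes around them were examined. Mouse Il24 lies at chr1:130809811-130815191 on the minus strand (GRCm39), with the start of Il20 at -24.0 kb and that of Il19 at -52.66 kb, minus meaning upstream along the strand of Il24. In the AcoCah2 assembly of spiny mouse Il24 lies on scaffold_5 from 59088449 to 59094027 on the plus strand, with those starts at -23.52 kb and -52.28 kb. Within 250 kb of the Il24 start were 22 mouse genes, 14 of them tested, and 13 spiny mouse genes, 12 of them tested. No other tested gene in the mouse window rose as far as Il24 and Il19, the next being Yod1, a deubiquitinase gene, at a log2 fold change of 0.99 (SE 0.16, adjusted p = 0.000673). Mapkapk2, a kinase gene beyond Il10, rose by 0.38 in mouse (adjusted p = 0.0248, a call lost in 4 of 16 alternative fits, among them those without treated replicate 3 or 4) and was at -0.07 in spiny mouse (adjusted p = 0.564). In spiny mouse the next after Il24, Il19 and Il10 were C4bp (log2 2.06, SE 0.35) and Fcmr, the IgM receptor (log2 1.97, SE 0.40, adjusted p = 0.00286), with Dyrk3 at 1.15. AA986860 rose in mouse by 0.60, while the gene models Gm28856, Gm37163, Gm37084 and Gm28857 and an unnamed one fell, with log2 fold changes of -2.26, -2.18, -1.81, -1.58 and -1.70. Gm15848 did not pass, and the mouse falls of Fcamr (-0.53) and Pfkfb2 (-0.54) were kept in 5 and 6 of 16 alternative fits. In spiny mouse Pfkfb2 fell by 0.38, and Yod1, AA986860 and Pigr did not pass. Pigr, the polymeric immunoglobulin receptor, fell in mouse by 6.47 (SE 1.51) on the log2 scale. That value rests on untreated replicate 1, at 10.9 CPM against 0.403 to 0.877 CPM in the other untreated samples, and without it the fall was 4.24. This is the library with the liver marker sum of 580 CPM.

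**Figure D5:**
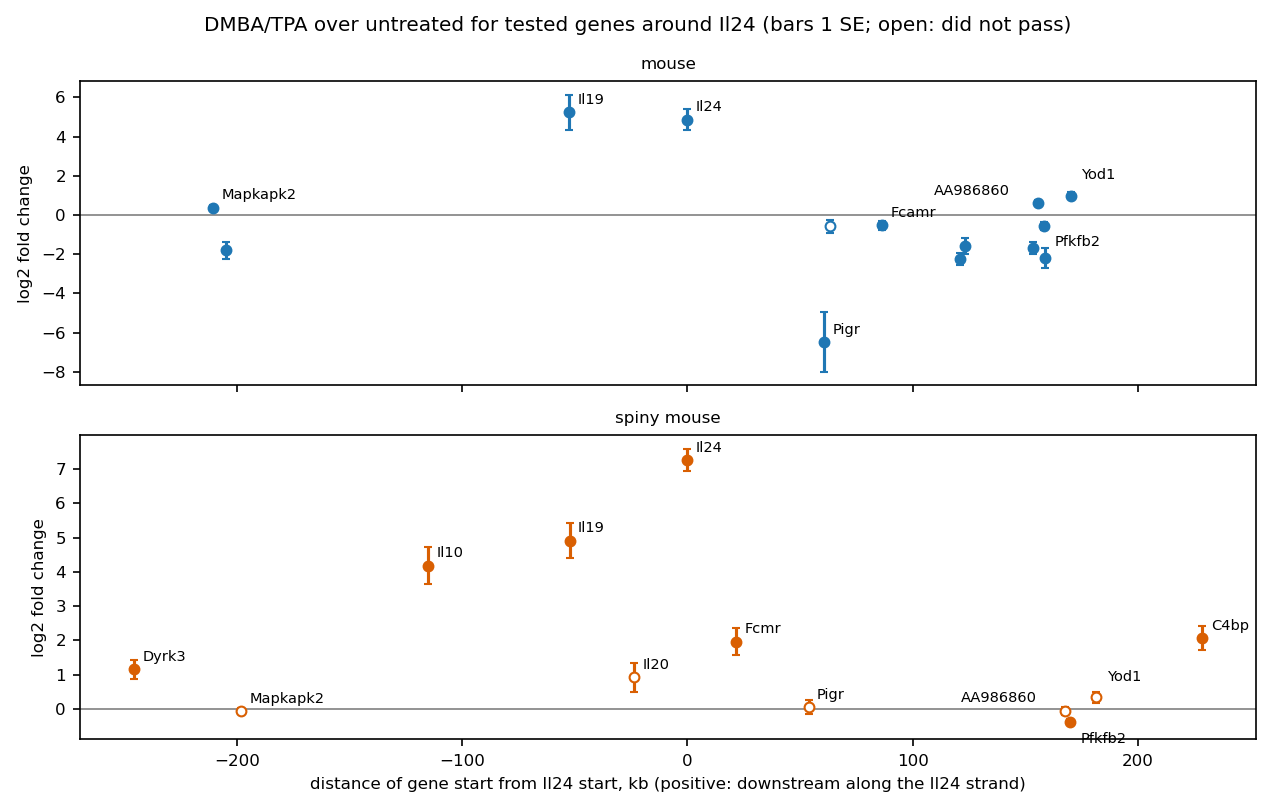
Log2 fold change of DMBA/TPA over untreated skin for each tested gene starting within 250 kb of Il24, against the distance of its start from that of Il24 in kb, with bars of 1 SE and open points where the test did not pass. Il24 and Il19 stand at 4.86 and 5.23 in mouse and 7.27 and 4.91 in spiny mouse, and the next highest point is Il10 in spiny mouse, at 4.19.

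The genes whose log2 levels followed Il24 most closely across the 8 samples of a species were picked separately in each species. In mouse they were Pxdc1, Paqr8, Cask, Shkbp1 and Dok4, with Pearson's r from 0.995 to 0.997 among 16690 genes. In spiny mouse they were Mxd1, Mcfd2, Arpc2, Msn and Klk6, with r from 0.996 to 0.999 among 13907 genes. Klk6 went from a mean of 64.0 CPM to 1692 CPM and Mxd1 from 158 to 587 CPM in spiny mouse, while Pxdc1 went from 22.5 to 57.4 CPM in mouse. All 8 samples enter each r, treated and untreated alike, so the gap between the groups weighs on every r, and the values are given as a description. Neither list was set against its r in the other species, so the lists do not show a difference between species.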

How the data were processed

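The values are raw fragment counts per gene, deposited by the authors as 1 table per species for 16 samples. Per the file headers, featureCounts 2.0.3 counted read pairs with both ends mapped, against GRCm39 with Ensembl annotation 108 for mouse and against the AcoCah2 assembly for spiny mouse. The submitters' processing notes also name Trim Galore and HISAT2. Per the labels, libraries were stranded and made from polyadenylated RNA, but the counting command sets no strand option, so overlapping genes cannot be told apart, and fragments shared by several genes were not counted. A symbol was found for 56236 of 56980 mouse identifiers. Column names of treated samples match the labels, while untreated ones have a code, matched by species letter and replicate number. The series' design text describes irradiated fibroblasts, and the sample labels were followed.

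Genes were filtered with filterByExpr, scaled by trimmed means of M values (TMM) and tested with the edgeR 4.0.16 quasi-likelihood F test in R 4.3.3, treated over untreated, with Benjamini-Hochberg adjustment over all genes and a threshold of 0.05. The species by treatment interaction was tested over shared symbols. The standard error is the size of the log2 fold change divided by the root of F. Scripts were tested on simulated data. The members and lists were chosen with earlier results of these data known. In each list and comparison, up to 3 called genes each way with the largest change and a mean of at least 1 CPM were named, as was any listed gene needed to account for a role or a level. Tested genes within 250 kb of Il24 and the 5 genes most alike to it were named too. Within-group replicates differed beyond sampling noise, and all were kept. The alternatives used the test or the size factors of DESeq2 1.42.0, upper-quartile and library size scaling, other count filters, limma 3.58.1 voom with sample weights, a replicate block, and leaving out each sample. Some listed genes are not reported here by name.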

Additional observations from a re-analysis of the deposited data

Results flagged for a closer look

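Within groups of 4 samples, 9 of 40 groups of member values held a sample far from the other 3, where chance flags about 1 in 20 groups. In treated mouse skin replicate 1 was the one that stood apart for 4 genes. It was highest for Il19, a ligand, at 5.72 CPM, for Il20rb at 93.9 CPM and for Il22ra1 at 39.1 CPM, and lowest for Il10rb at 16.9 CPM. Socs3 had a far sample in 3 groups, the highest untreated mouse sample at 49.8 CPM (replicate 1), the lowest untreated spiny mouse sample at 19.7 CPM (replicate 3) and the highest treated spiny mouse sample at 229 CPM (replicate 4). Il22ra1 was lowest in treated spiny mouse replicate 4, at 78.5 CPM. For Il20 the highest untreated mouse sample, at 0.0366 CPM (replicate 3), is 1 count.

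The edgeR interaction term was called for 3 members, which is a description here, since the members were chosen with their responses known. On the log2 scale, the change in spiny mouse exceeded that in mouse by 3.65 for Il20ra, by 2.07 for Socs3 and by 0.82 for Il20rb. For Il20ra and Il20rb this means a smaller fall in spiny mouse, with Il20rb not called there and its difference kept in only 10 of 24 alternative fits, and for Socs3 a larger rise.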

How the results depend on the processing

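The total counts of calls, over all genes and over the other pathway genes, moved by less than 1.5 times, but members called for the species difference went from 3 to 6 with DESeq2. The 12085 mouse genes called ranged from 11246 to 14146 over other settings and from 11062 to 13944 with 1 sample left out, and the 56 other pathway genes from 53 to 61 and from 49 to 63. In spiny mouse 8180 genes became 7418 to 8676 and 7258 to 8132, and 53 pathway genes 50 to 56 and 53 to 58. For the species difference 6290 became 5723 to 7861 and 5746 to 7711, and 40 became 37 to 47 and 34 to 45. Of 480 alternative values for members, 460 moved by less than the standard error of the main fit, 20 moved by more and 0 changed sign while called. Of 4496 for other named genes, 196 lost a call, 96 gained one and 0 reversed.

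Scaling sets the balance of directions in mouse. Its median log2 fold change shifted by -0.24 with library size alone, by -0.20 with upper quartiles and by 0.10 with DESeq2 size factors, and the share of higher calls went from 42.4% to 28.6%, 30.5% and 48.4%. In the species difference that share went from 46.4% to 66.2%, 61.2% and 36.9%, and to 36.3% without a low-count filter. Among pathway genes, mouse calls split 38 higher and 18 lower, 32 and 24 with library size alone, and 42 and 11 without the filter. The species difference split 25 and 15, 31 and 7 with library size alone, and 30 and 8 with upper quartiles. The mouse call for Socs3 was lost under library size and upper-quartile scaling. Uncalled values of Il22ra1 in mouse, Il20rb in spiny mouse, and Il10rb and Il19 in the species difference took either sign.

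Replicate numbers recur in each group, and the main fits did not pair samples by them. Same-numbered deviations from group means correlated between -0.00799 and 0.0229 in mouse and between -0.526 and -0.195 in spiny mouse. Over all pairs of numbers the range was -0.149 to 0.119 in mouse and -0.526 to 0.528 in spiny mouse. Since differently numbered samples correlated as strongly, these values cannot decide whether samples were paired. A replicate block in the fit left 11246 mouse, 7418 spiny mouse and 5723 interaction calls, and 53, 50 and 37 among pathway genes. Depth limits Il20 and Il6 in mouse, which held 1 and 26 counts over the untreated and 10 and 51 over the treated libraries.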
